A study of Mus musculus with 22 samples.

Results

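Of 94171 autosomal windows of open chromatin in Kupffer cells, 650 carried more of the active histone mark H3K27ac (acetylated lysine 27 of histone H3) in BALB/cJ mice than in A/J and in C57BL/6J mice. The windows were chosen on these parental values themselves: a BALB/cJ mean of at least 5 CPM (counts scaled to the library total), at least 2 times the mean of each of the other strains, and at least 0.4 CPM in every strain. The rule thus took 0.690% of the autosomal windows, and the strain differences among the 650 are given below as a description with no test. In sorted but bulk cells, a mark in fewer cells and less of it per cell cannot be told apart. Each window spans 1000 bp around an ATAC-seq peak and is named here by its nearest annotated gene, which need not be the gene it acts on. Together the 650 windows lay nearest to 415 genes, and 137 of them overlapped the chosen window before them, so neighboring windows share reads.

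Kupffer cells are the resident macrophages of the liver sinusoids, where they clear particles, microbes and aged blood cells from portal blood. H3K27ac marks active promoters and enhancers, and its level at a distal element is widely read as a measure of enhancer activity. In an F1 hybrid both parental genomes sit in the same nucleus, so that reads overlapping strain variants show the acetylation of each allele under a shared set of transcription factors and signals.

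H3K27ac ChIP-seq was made from untreated male BALB/cJ, A/J and C57BL/6J mice of 8 to 12 weeks (3 libraries each), with ChIP inputs from BALB/cJ (3), A/J (3) and C57BL/6J (1). A further 3 libraries came from untreated CB6F1/J hybrids, the offspring of BALB/cJ females and C57BL/6J males, and their reads were deposited by allele. The BALB/cJ allele was therefore the maternal one in every hybrid, and strain and parent of origin cannot be told apart there. The labels number the hybrid libraries as replicates 1 to 3 and do not state that each is 1 animal. Kupffer cells were sorted as CD146-negative, CD45-positive, F4/80-high cells with intermediate CD11b.

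ChIP totals ran between 2291426 and 12980348 counts per library, inputs between 583518 and 1916588, and F1 allele columns between 182654 and 400681. The replicate 2 ChIP library of each strain was the shallowest of its strain and the sole one with half-step counts, so the rule was also applied within each set of libraries. Replicates 1 and 3 alone gave 624 windows, of which 462 were among the 650, and replicate 2 alone gave 1421, of which 428 were among the 650. Acetylation at the Kupffer cell genes *Clec4f*, *Vsig4*, *Timd4*, *Cd5l*, *Adgre1* and *Csf1r* was high in all strains, with 12.2 to 72.2 CPM at the strongest window of each gene, and none of these windows was among the 650. Promoter windows were listed for 1 B cell marker gene and 1 T and NK cell marker gene, with at most 4.24 CPM in any strain.

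Sequences of 7 windows that the results return to are shown first: 3 of the 4 called between alleles with the hybrid library as a block (*Pxmp4*, *Rbl2* and *Pxn*), the strongest chosen promoter after *Pxmp4* (*Bhlhe41*), the 2 windows with the largest parental ratios by gene (*Kif2c* and *Vti1b*), and a window of the largest locus (*Arg2*). They are the central 300 bases of each window in the reference, which is the C57BL/6J genome (GRCm38, identical in coordinates to the mm10 build of the files), and strain variants are therefore not visible in them. Capitals mark matches, on either strand, to a fixed set of short motifs: AP-1 (TGANTCA), CRE (TGACGTCA), PU.1 (GAGGAAGT), C/EBP (TTGCNNAA), NFIL3 (TTANGTAA), the MAF half-site (TGCTGAC), IRF (GAAANNGAA), NF-kB (GGGANNTCC), MITF/TFE (TCACGTGA) and RUNX (TGTGGTTT). An AP-1 match can share bases with a MAF half-site match.
Pxmp4 chr2:154603739-154604038, plus strand: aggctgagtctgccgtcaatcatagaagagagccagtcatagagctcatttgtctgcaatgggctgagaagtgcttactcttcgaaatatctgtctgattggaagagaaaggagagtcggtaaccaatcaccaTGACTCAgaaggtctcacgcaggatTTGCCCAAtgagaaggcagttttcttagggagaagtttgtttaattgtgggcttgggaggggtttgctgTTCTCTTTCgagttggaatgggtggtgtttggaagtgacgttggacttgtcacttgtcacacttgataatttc
Rbl2 chr8:91082039-91082338, plus strand: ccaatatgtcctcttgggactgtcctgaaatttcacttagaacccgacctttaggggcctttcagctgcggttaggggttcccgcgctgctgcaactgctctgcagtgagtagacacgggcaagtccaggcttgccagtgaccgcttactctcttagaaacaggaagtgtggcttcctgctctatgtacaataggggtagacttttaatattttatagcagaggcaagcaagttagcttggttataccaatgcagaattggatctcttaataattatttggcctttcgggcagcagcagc
Bhlhe41 chr6:145866042-145866341, plus strand: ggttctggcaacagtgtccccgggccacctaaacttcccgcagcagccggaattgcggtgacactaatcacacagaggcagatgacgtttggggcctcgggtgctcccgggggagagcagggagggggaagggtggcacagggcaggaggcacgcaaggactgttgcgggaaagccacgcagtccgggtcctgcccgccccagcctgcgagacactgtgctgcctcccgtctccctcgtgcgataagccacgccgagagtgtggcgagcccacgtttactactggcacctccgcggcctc
Pxn chr5:115513266-115513565, plus strand: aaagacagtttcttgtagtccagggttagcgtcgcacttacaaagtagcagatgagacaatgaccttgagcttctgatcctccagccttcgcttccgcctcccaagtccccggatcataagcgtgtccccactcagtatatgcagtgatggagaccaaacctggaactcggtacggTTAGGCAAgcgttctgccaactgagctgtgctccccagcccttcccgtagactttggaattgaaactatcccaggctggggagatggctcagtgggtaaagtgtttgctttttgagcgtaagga
Kif2c chr4:117199524-117199823, plus strand: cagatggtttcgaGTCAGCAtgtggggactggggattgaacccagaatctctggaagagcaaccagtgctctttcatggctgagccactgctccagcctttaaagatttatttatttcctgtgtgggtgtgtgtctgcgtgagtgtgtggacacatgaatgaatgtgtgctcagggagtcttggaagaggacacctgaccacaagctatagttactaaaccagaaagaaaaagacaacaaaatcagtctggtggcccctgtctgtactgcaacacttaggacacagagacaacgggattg
Vti1b chr12:79168432-79168731, plus strand: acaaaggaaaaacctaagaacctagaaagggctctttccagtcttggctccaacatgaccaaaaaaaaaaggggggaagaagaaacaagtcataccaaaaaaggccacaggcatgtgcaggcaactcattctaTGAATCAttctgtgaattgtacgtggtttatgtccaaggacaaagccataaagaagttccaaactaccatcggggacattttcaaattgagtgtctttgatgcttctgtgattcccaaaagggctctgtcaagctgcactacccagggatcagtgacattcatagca
Arg2 chr12:79132168-79132467, plus strand: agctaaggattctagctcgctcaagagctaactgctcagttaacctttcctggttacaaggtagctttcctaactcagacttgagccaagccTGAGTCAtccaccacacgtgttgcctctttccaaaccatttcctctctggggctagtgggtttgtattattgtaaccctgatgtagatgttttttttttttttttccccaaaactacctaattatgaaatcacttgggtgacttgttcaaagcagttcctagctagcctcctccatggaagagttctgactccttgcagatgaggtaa
The *Pxmp4* stretch held an AP-1, a C/EBP and an IRF match, the *Vti1b* and *Arg2* stretches an AP-1 match each, the *Pxn* stretch a C/EBP match and the *Kif2c* stretch a MAF half-site. The *Rbl2* and *Bhlhe41* stretches held none of these letters. A match is a description of the letters and was not tested as a binding site.

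The largest strain ratios belonged to windows that were close to empty in A/J and C57BL/6J. An intergenic window near *Kif2c*, which encodes a microtubule-depolymerizing kinesin of mitosis (chr4:117199173-117200173), had 27.4, 12.7 and 27.6 CPM in BALB/cJ, against 0.81, 0.44 and 0.58 CPM in A/J and 0.18, 1.24 and 1.00 CPM in C57BL/6J. Its mean was thus 37.0 times that of A/J and 27.9 times that of C57BL/6J. An intronic window of *Vti1b*, a SNARE protein of endosomal membrane fusion (chr12:79168081-79169081), had 27.7, 30.1 and 25.8 CPM in BALB/cJ, against 0.71, 2.18 and 1.17 CPM in A/J and 0.55, 1.42 and 0.15 CPM in C57BL/6J. The BALB/cJ libraries did not overlap those of the other strains at either window.

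The transcription end of *Cd300ld*, which encodes a myeloid receptor of the immunoglobulin superfamily (chr11:114981559-114982559), had 24.3, 22.8 and 22.2 CPM in BALB/cJ, against 0.20, 1.31 and 0.50 CPM in A/J and 1.28, 1.06 and 1.23 CPM in C57BL/6J. Of the 14 *Cd300* and TREM family genes listed, *Cd300ld* (2 windows) and *Cd300c* (1 window) had chosen windows, and the median of the smaller strain ratio over these 3 windows was 5.38. The next genes by largest ratio were *Agmat* (agmatinase, with the window in an intron of *Dnajc16*), *Lnx1* (an E3 ubiquitin ligase, with the window at -2405 bp from its start site), *Tmem229b* (at -7840 bp), *Acss2* (an acetyl-CoA synthetase, intron) and *Tgm3* (a transglutaminase, at -97981 bp). Their BALB/cJ means were 11.3 to 16.1 CPM and their smaller ratios 11.8 to 18.3. In each of these 8 windows an ATAC-seq peak of untreated cells was listed for BALB/cJ and for neither other strain.

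Ratios of this size were rare among the 650 windows. The smaller of the 2 strain ratios was under 3 in 469 windows, between 3 and 5 in 135, and at least 5 in 46, of which 13 reached 10. Its median was 2.50 (quartiles 2.17 and 3.16). BALB/cJ means had a median of 9.31 CPM over the chosen windows, against 3.12 CPM in A/J and 2.71 CPM in C57BL/6J, while over all autosomal windows the medians were 4.15 CPM in BALB/cJ, 3.92 CPM in A/J and 4.00 CPM in C57BL/6J. All 3 BALB/cJ libraries lay above all 6 others in 580 of the 650 windows; since the rule chose on these values, this count is only set beside the 3.92% of all autosomal windows for which it held. A/J was more than 2 times above C57BL/6J in 100 of the 650 windows, and C57BL/6J more than 2 times above A/J in 31. The rule limited both means and the shares over all autosomal windows were not computed, so these counts are not read as a trait of the 650.

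**Figure D1:**
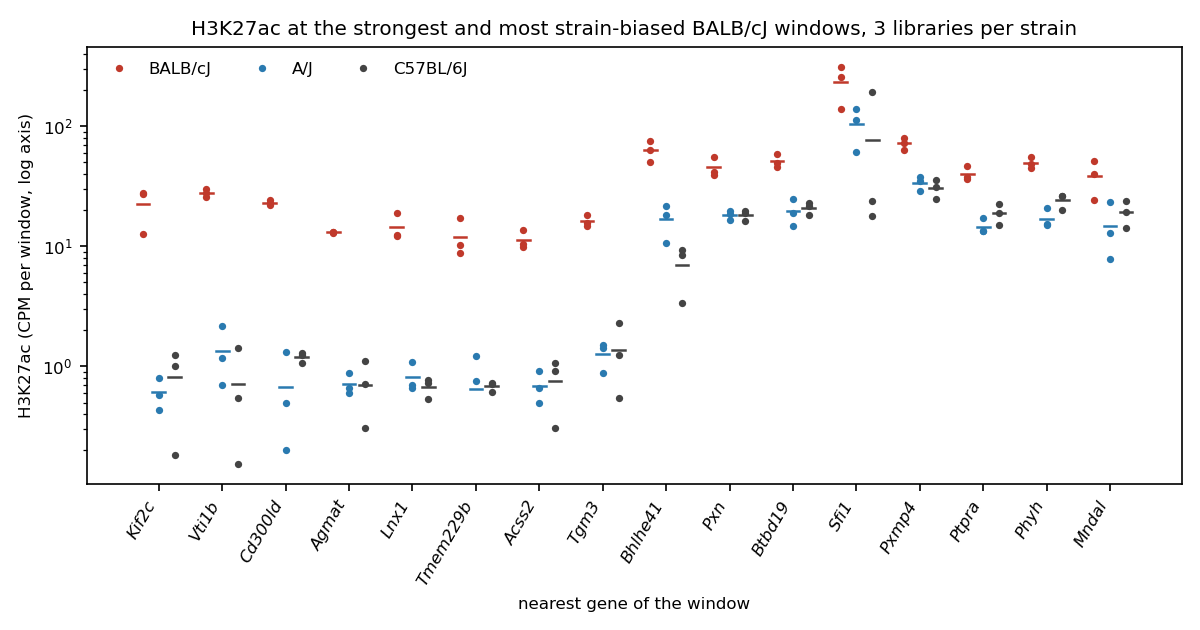
H3K27ac in CPM (log axis) in the 3 libraries of BALB/cJ, A/J and C57BL/6J at the windows with the largest strain ratios and the highest BALB/cJ means, with bars at the means and libraries at 0 not drawn. At *Kif2c*, *Vti1b* and *Cd300ld* the BALB/cJ libraries lie between 12.7 and 30.1 CPM and the other strains between 0.15 and 2.18 CPM, whereas *Sfi1* overlaps between strains.

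The strongest chosen windows were acetylated in all 3 strains. The promoter window of *Pxmp4*, a peroxisomal membrane protein (chr2:154603388-154604388), had 72.6, 63.3 and 79.9 CPM in BALB/cJ, against 34.7, 29.0 and 37.9 CPM in A/J and 31.3, 24.6 and 35.8 CPM in C57BL/6J. The promoter window of *Bhlhe41*, a basic helix-loop-helix repressor (chr6:145865691-145866691), had 62.8, 50.5 and 75.3 CPM in BALB/cJ, against 21.5, 10.7 and 18.1 CPM in A/J and 8.42, 3.37 and 9.24 CPM in C57BL/6J. At *Bhlhe41* the strains were therefore ordered BALB/cJ, A/J, C57BL/6J with no overlap between their libraries, whereas at *Pxmp4* A/J and C57BL/6J overlapped. *Pxn*, the focal adhesion adaptor paxillin (intron, chr5:115512915-115513915), averaged 45.3 CPM in BALB/cJ and 18.2 CPM in each other strain, and *Phyh*, a peroxisomal phytanoyl-CoA hydroxylase (intron, chr2:4918968-4919968), 49.5 CPM in BALB/cJ, 17.0 CPM in A/J and 24.2 CPM in C57BL/6J. *Btbd19*, *Ptpra* (a receptor tyrosine phosphatase) and *Mndal* (an interferon-inducible gene of the Ifi200 family) had BALB/cJ means of 51.2, 40.0 and 38.4 CPM and smaller ratios of 2.45, 2.12 and 2.01.

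The highest BALB/cJ mean of all, at an intronic window of *Sfi1* (a centrosomal protein), did not separate the strains by library. It had 140, 312 and 254 CPM in BALB/cJ, against 60.6, 113 and 139.9 CPM in A/J and 23.6, 191 and 17.9 CPM in C57BL/6J. The ChIP input of this window was also high, at 320 CPM in BALB/cJ, 242 CPM in A/J and 306 CPM in the C57BL/6J library, where the medians over the 650 windows were between 8.54 and 8.79 CPM. The part of the input in that window's difference was not tested.

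Chosen windows could lie close together. Chained at gaps of at most 50000 bp, the 650 windows formed 412 loci, of which 273 held a single window and 9 held at least 5 windows (59 windows in all). The largest locus ran over *Arg2*, the mitochondrial arginase, and *Vti1b* (chr12:79130345-79171101), where 11 of 15 windows were chosen. The *Arg2* promoter window had 32.7, 27.4 and 22.3 CPM in BALB/cJ, against 10.9, 5.02 and 8.24 CPM in A/J and 9.70, 11.2 and 10.7 CPM in C57BL/6J. An intronic window 1529 bp inside the gene had 36.9, 29.9 and 33.7 CPM in BALB/cJ, against 8.47, 3.27 and 8.66 CPM in A/J and 5.67, 8.68 and 6.93 CPM in C57BL/6J. At the *Vti1b* promoter, which was not chosen, the means were 72.3 CPM in BALB/cJ, 64.3 CPM in A/J and 56.5 CPM in C57BL/6J, a smaller ratio of 1.13, and in the intronic window 701 bp inside the gene the smaller ratio was 1.69.

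*Colec12*, a scavenger receptor of the collectin family, had 9 chosen windows, the most of any gene. Of these, 7 lay in one locus of 9 windows (chr18:9706581-9732689), in one group around the start site and another about 24 kb inside the gene. The window 500 bp after the start site had 21.6, 20.6 and 38.6 CPM in BALB/cJ, against 6.66, 7.86 and 6.24 CPM in A/J and 3.84, 2.30 and 3.16 CPM in C57BL/6J. *Plcl1*, *Ell* (an RNA polymerase II elongation factor) and *Arg2* had 7 chosen windows each, and *Ankrd33b* and *Ifi202b* 6 each. At *Ell* the chosen windows lay 7017 to 23257 bp inside the gene with BALB/cJ means of 5.88 to 12.6 CPM, while the promoter window 204 bp before the start site had 53.6 CPM in BALB/cJ, 50.9 CPM in A/J and 48.8 CPM in C57BL/6J.

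**Figure D2:**
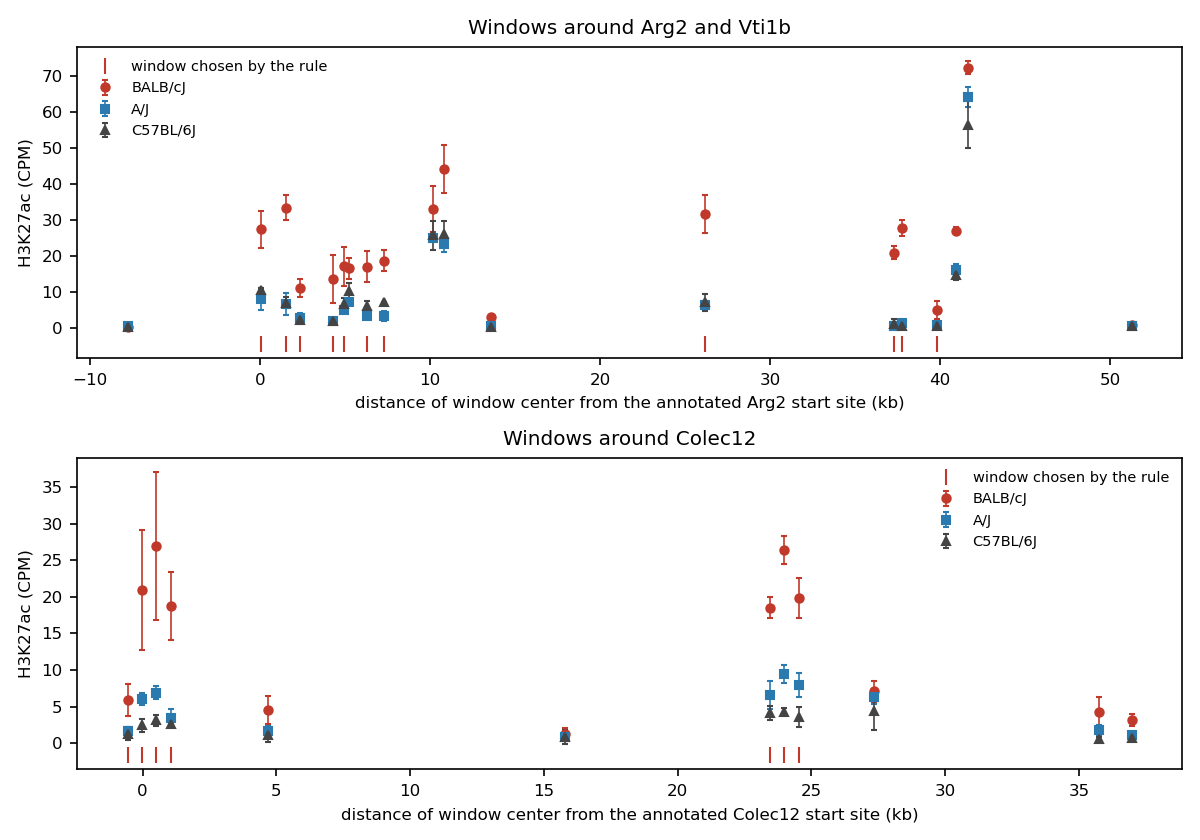
Mean H3K27ac (CPM, error bars SD, n = 3 libraries a strain) in BALB/cJ, A/J and C57BL/6J at each window around *Arg2* and *Vti1b* (top) and *Colec12* (bottom), by distance of the window center from the annotated *Arg2* or *Colec12* start site; ticks mark the windows chosen by the rule. BALB/cJ is highest along the introns, while at the *Vti1b* promoter on the right of the top panel the means are 72.3 CPM in BALB/cJ, 64.3 CPM in A/J and 56.5 CPM in C57BL/6J.

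Chosen windows lay farther from start sites than windows in general. Promoter windows made up 60 of the 650 (9.23%), against 15.1% of all autosomal windows, and windows 10 to 100 kb from a start site 53.2%, against 43.6%. Introns held 47.7% and intergenic sequence 36.9%, against 43.7% and 34.5% of all autosomal windows. The median distance to a start site was 19580 bp, against 10870 bp over all autosomal windows, and the median GC content was 47.3%, against 47.2%. By chromosome, the chosen share of windows ran between 0.359% on chromosome 7 (21 windows) and 0.991% on chromosome 8 (47 windows).

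Open chromatin was read from the peak sets. An ATAC-seq peak of untreated BALB/cJ cells was listed for 603 of the 650 windows (92.8%), against 82.2% of all autosomal windows. For A/J the shares were 53.4% against 59.6%, and for C57BL/6J 54.2% against 64.2%. Peaks of untreated cells were listed for BALB/cJ and no other strain at 203 chosen windows (31.2%), against 17.6% of all autosomal windows, for A/J only at 3 (0.462%), against 2.00%, and for C57BL/6J only at 1 (0.154%), against 3.73%. Another 295 chosen windows (45.4%) had a peak in all 3 strains, against 51.4%. No peak of untreated cells was listed at 43 (6.62%), against 11% of all autosomal windows, and these entered through the peak sets of lipopolysaccharide-treated BALB/cJ or C57BL/6J cells. The peak lists carry no read depth, so the part of ATAC-seq depth in these shares was not tested.

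Motif letters were counted over the full 1000 bp of each window. TCACGTGA, which basic helix-loop-helix zipper factors such as MITF and TFE3 bind, was found in 15 chosen windows (2.31%), against 1.26% of all autosomal windows, and TGACGTCA, the cAMP response element, in 19 (2.92%), against 1.74%. The MAF half-site occurred in 22.6% against 16.5%, and the AP-1 letters in 38.6% against 31.6%. Outside promoters the shares were 2.37% against 1.00% for MITF/TFE, 3.05% against 1.29% for CRE, 23.6% against 17.3% for the MAF half-site and 38.8% against 34.0% for AP-1. The shares were 9.69% against 8.01% for RUNX, 31.7% against 31.1% for IRF, 36.5% against 36.7% for C/EBP, 9.54% against 9.61% for NFIL3, 13.1% against 14.2% for PU.1 and 10.8% against 11.9% for NF-kB. None of these differences was tested. Windows with the CRE letters included the *Arg2* promoter and 2 windows of *S1pr1*, and those with the MITF/TFE letters a window in *St3gal3* (35.2 CPM in BALB/cJ) and a window in *Cx3cr1*, all picked out here after their values were seen.

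**Figure D3:**
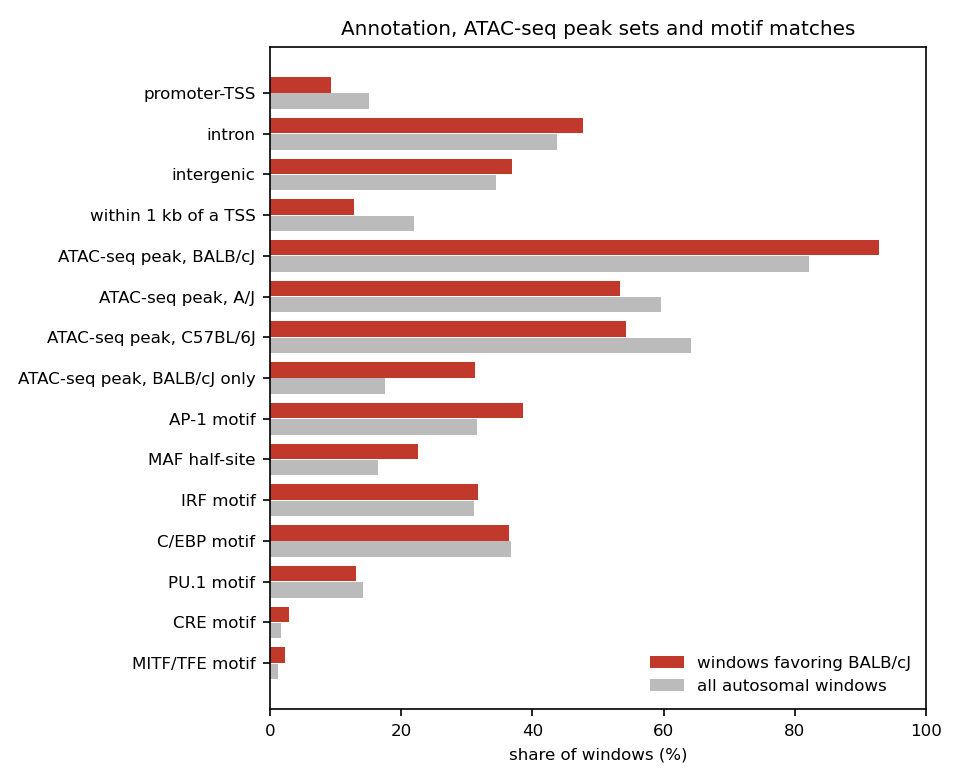
Share in percent of the 650 windows favoring BALB/cJ (red) and of all 94171 autosomal windows (grey) by annotation class, by ATAC-seq peak of untreated cells in each strain, and by motif letters in the 1000 bp window. Promoters are less frequent (9.23% against 15.1%) and windows with a peak in BALB/cJ only more frequent (31.2% against 17.6%) among the 650.

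By nearest gene, the chemotaxis and wound healing list had the most genes with chosen windows among the lists, 7 of 34 genes and 11 of 348 windows (3.16%), to be set beside the 0.690% over all autosomal windows. The list was drawn up with earlier results of these data known and is no independent evidence. Its genes were the chemokines *Ccl24*, *Ccl3*, *Ccl6* and *Cxcl1*, the receptors *Cxcr4* and *Cx3cr1*, and the growth factor *Pdgfb*. The *Ccl24* window (intron, chr5:135571034-135572034) had 24.2, 28.0 and 18.9 CPM in BALB/cJ, against 10.9, 8.29 and 10.5 CPM in A/J and 15.0, 8.15 and 12.4 CPM in C57BL/6J. The stronger *Cxcr4* window, at -120770 bp from the start site, had 25.7, 26.2 and 19.1 CPM in BALB/cJ, against 15.6, 5.24 and 14.0 CPM in A/J and 8.60, 9.92 and 7.01 CPM in C57BL/6J. *Pdgfb* and *Ccl3* windows averaged 17.5 and 13.7 CPM in BALB/cJ, with smaller ratios of 2.16 and 2.23.

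In the other lists the share of windows chosen was 2.80% (3 of 107) for the *Cd300* and TREM genes, 2.60% (2 of 77) for sinusoidal endothelial markers, 1.504% (4 of 266) for the interferon list and 0.862% (4 of 464) for Toll-like receptor and NF-kB signaling, and the lists were not tested against one another. Toll-like receptor and NF-kB signaling had them at *Il1b* (at -42660 and -43143 bp from its start site, smaller ratios 2.68 and 3.59) and *Nfkbiz* (smaller ratios 2.07 and 2.28), 2 of 30 genes. The interferon list had *Ifi203* and *Irf8* (2 of 30). The strongest of the *Ifi203* windows lay at the end of *Ifi202b*, while the *Ifi203* promoter window was not chosen and had 8.65 CPM in BALB/cJ, 3.42 CPM in A/J and 14.2 CPM in C57BL/6J. An intronic window 403 bp inside the gene had 3.85 CPM in BALB/cJ, 3.88 CPM in A/J and 22.5 CPM in C57BL/6J, so not all windows of *Ifi203* favored BALB/cJ. Further, 1 gene each was found for LXR targets (*Abcg1*, a cholesterol exporter), AP-1 and related factors (*Jun*), leptin signaling (*Lepr*) and lipid-associated macrophage genes. In that order, the windows chosen were 1 of 254 (0.394%), 1 of 360 (0.278%), 1 of 133 (0.752%) and 1 of 189 (0.529%). Over all autosomal windows the share was 0.690%. The lipid-associated macrophage gene was *Cd63*, a tetraspanin of late endosomes. Its promoter window had 11.5, 10.5 and 11.7 CPM in BALB/cJ, against 2.93, 0.87 and 1.42 CPM in A/J and 1.28, 0 and 0.85 CPM in C57BL/6J. No chosen window was nearest to a gene of the Kupffer cell identity, MAF, MITF/TFE and lysosome, MHC class I or MHC class II lists (0 of 27, 0 of 22, 0 of 13 and 0 of 11 genes with windows), which held 503, 343, 58 and 100 windows. Among markers of other cells, *Bmp2*, secreted by sinusoidal endothelial cells, had 2 chosen windows (8.21 and 5.88 CPM in BALB/cJ, smaller ratios 3.40 and 2.91) and *S100a8*, of neutrophils and monocytes, 1 (6.01 CPM, smaller ratio 2.58); hepatocyte, stellate cell, B cell, T and NK cell and dendritic cell lists had none. Promoter windows were listed for 3 of 11 endothelial marker genes, with medians of 1.81 CPM in BALB/cJ, 1.46 CPM in A/J and 1.33 CPM in C57BL/6J, and for 4 of 12 neutrophil and monocyte genes, with 3.64 CPM in BALB/cJ, 3.02 CPM in A/J and 6.63 CPM in C57BL/6J. Those of 2 of 10 stellate cell genes had medians of 27.3 CPM in BALB/cJ, 20.7 CPM in A/J and 24.4 CPM in C57BL/6J, those of 2 of 8 dendritic cell genes 5.67 CPM in BALB/cJ, 6.25 CPM in A/J and 4.61 CPM in C57BL/6J, and no hepatocyte gene had one. The part of other cells in these windows was not tested. A list of genes named in the study itself, which is not independent of these samples, had chosen windows at 5 of 27 genes (*Arg2*, *Ifi203*, *Cxcr4*, *Abcg1* and *Lepr*), 14 of 398 windows (3.52%).

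The hybrids gave an independent measure, since the rule used none of their reads. An allelic count was present at 247 of the 650 windows, none at 403, and 200 of the 247 fell under the filter of a mean normalized count above 16, which left 47 windows that could be tested, resting on 42 distinct sets of reads. These 47 windows are those with strain variants and depth, not a sample of all 650. Of the 47, 22 reached the filter's mean on the BALB/cJ allele only, 2 on the C57BL/6J allele only and 23 on both, so that the first kind entered through the allele on which they were high and their count is no support. The BALB/cJ allele was called higher at 14 of the 47 (edgeR quasi-likelihood test, Benjamini-Hochberg adjusted p under 0.05 over 5308 windows and log2 fold change over 1), and the C57BL/6J allele at none. Over all windows tested the calls were 3.00% toward BALB/cJ and 4.39% toward C57BL/6J. Among the 14 were 8 of the 22 windows over the filter's mean on the BALB/cJ allele only (*Cd84*, *Tgm3* and *Sfn* among them) and 6 of the 23 over it on both alleles. The 14 windows rested on 12 distinct sets of reads, because the 2 *Sfn* windows and the 2 *Vti1b* windows shared theirs. With the library as a block, which pairs the alleles of each hybrid library, 4 of the 47 windows were called (*Cd84*, *Pxmp4*, *Rbl2* and *Pxn*), against 1.47% of all windows tested. None was called toward C57BL/6J, against 2.20%. The median log2 fold change, BALB/cJ over C57BL/6J allele, was 1.13 over the 47 windows (quartiles 0.30 and 1.58), against 0.01 over all windows tested. It was above 0 in 43 of the 47, against 2744 of all 5308 windows tested. Both values include the 22 windows that entered through the BALB/cJ allele only, so they are no support either. At an unadjusted p under 0.05 (edgeR) there were 27 of the 47 windows, in either direction, against 919 of all 5308 windows tested. DESeq2 called 16 of the 47 toward BALB/cJ and none toward C57BL/6J, against 3.18% and 4.43% of all windows tested. Without the filter on low counts, 31 of 247 windows were called toward BALB/cJ and 1 toward C57BL/6J, against 1.34% and 1.95%.

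The number called depended on single hybrid libraries. It was 13 of 58 windows tested without library 1 (2.89% of all windows tested in that setting), 6 of 35 without library 2 (1.11%) and 3 of 46 without library 3 (0.854%). The median log2 fold change stayed between 1.17 and 1.29. All 3 counts of the BALB/cJ allele lay above all 3 of the C57BL/6J allele at 17 of the 47 windows, against 4.22% of all windows tested, and all 3 of the C57BL/6J allele above all 3 of the BALB/cJ allele at none, against 6.20%. With counts normalized for depth, the BALB/cJ allele lay above at 24, against 9.53%, and the C57BL/6J allele at 1 (*Phyh*), against 11.9%. These counts over the 47 include the 22 windows that passed the filter through the BALB/cJ allele only, so they are no support.

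The *Pxmp4* promoter combined the deepest coverage with a called difference. It had 156.5, 255.5 and 129.5 reads on the BALB/cJ allele, against 39.5, 68.5 and 63.5 on the C57BL/6J allele, a BALB/cJ share of 79.8%, 78.9% and 67.1% in the 3 libraries. The log2 fold change was 1.69 ± 0.24 (SE, n = 3 libraries, edgeR adjusted p = 8.7e-05, 0.038 with the block), beside a parental ratio of 2.35 to C57BL/6J. The ChIP input of this window was 41.7, 22.3 and 24.9 CPM in BALB/cJ, against 14.4, 7.30 and 14.0 CPM in A/J and 6.86 CPM in the C57BL/6J library, with no overlap (log2 fold change BALB/cJ over A/J 1.39 ± 0.40; edgeR adjusted p = 0.49), and the part of the input in the ChIP difference was not tested. *Rbl2*, which encodes the pocket protein p130, had 42, 102 and 90.5 reads on the BALB/cJ allele, against 16, 38 and 30.5 on the C57BL/6J allele. Its log2 fold change was 1.49 ± 0.30 (edgeR adjusted p = 0.0027, 0.035 with the block). This was 1 of 2 chosen *Rbl2* windows, both tested, and the other is not among the 14. *Pxmp4* and *Rbl2* alone met the rule fixed for naming called windows, and the others are named to complete the 14.

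Larger allelic differences rested on fewer reads. An intergenic window at -14084 bp from *Cd84*, a SLAM family receptor (chr1:171825113-171826113), had 23, 37.5 and 41 reads on the BALB/cJ allele, against 2.0, 1.0 and 4.0 on the C57BL/6J allele (log2 fold change 3.81 ± 0.63; edgeR adjusted p = 0.00039, 0.036 with the block). The distal *Tgm3* window had 21.5, 53.5 and 38.5 reads on the BALB/cJ allele, against 0, 7.5 and 3.0 on the C57BL/6J allele (log2 fold change 3.43; edgeR adjusted p = 0.00067, 0.057 with the block). Called without the block but not with it were also *Sfn* (14-3-3 sigma; the windows lie in introns of *Zdhhc18*), *Stk35os1*, *Slc39a11* (a zinc transporter), *Lpin2* (a phosphatidate phosphatase; the window lies in an intron of *Emilin2*), *Spats2l* and *Ap1m1* (a clathrin adaptor subunit), with log2 fold changes of 3.09, 2.96, 2.77, 2.69, 1.90 and 1.37. At *Vti1b* the reads were 43.5, 41.0 and 59.5 on the BALB/cJ allele, against 18.5, 20.5 and 15.5 on the C57BL/6J allele (log2 fold change 1.43; edgeR adjusted p = 0.036, 0.081 with the block), where the parental ratio to C57BL/6J had been 39.4. At *Pxn* they were 83.0, 189 and 185 on the BALB/cJ allele, against 33.5, 94.0 and 51.0 on the C57BL/6J allele (log2 fold change 1.41; edgeR adjusted p = 0.00057, 0.046 with the block).

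**Figure D4:**
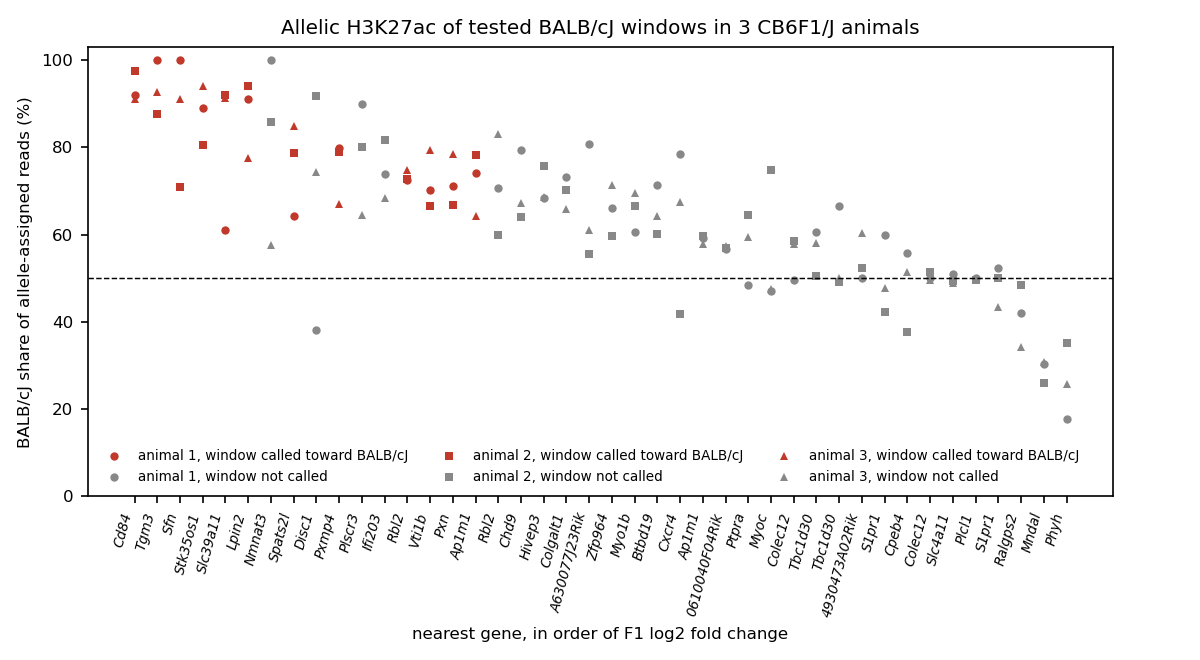
Percent of allele-assigned H3K27ac reads on the BALB/cJ allele in each of 3 CB6F1/J libraries (called animals in the figure) at the 42 distinct read sets of tested windows. Windows are ordered by log2 fold change, with those called toward BALB/cJ by edgeR in red and a dashed line at equal shares. At *Pxmp4* the shares are 79.8%, 78.9% and 67.1%, while from *S1pr1* to *Slc4a11* they scatter around the line.

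At other windows with a parental difference, none between alleles was detectable at this depth. A distal window of *S1pr1*, a receptor for sphingosine-1-phosphate (chr3:115695287-115696287), had 57.5, 85.0 and 47.0 reads on the BALB/cJ allele, against 52.5, 85.0 and 61.5 on the C57BL/6J allele. The log2 fold change was -0.03 (95% interval -0.61 to 0.55; edgeR adjusted p = 1.0), where the parents had 15.7, 31.7 and 20.7 CPM in BALB/cJ, against 6.59, 7.97 and 7.86 CPM in C57BL/6J. At *Colec12* a window 24541 bp inside the gene had 28.0, 35.5 and 37.0 reads on the BALB/cJ allele, against 28.0, 33.5 and 37.5 on the C57BL/6J allele (log2 fold change 0.04, 95% interval -0.74 to 0.82), beside a parental ratio of 5.65 to C57BL/6J. *Slc4a11* (a membrane transporter; the window lies in an intron of *4930402H24Rik*) had a log2 fold change of 0.03 (95% interval -0.82 to 0.87), *Myoc* 0.40 (-0.43 to 1.24) and *Ptpra* 0.46 (-0.02 to 0.95). The 2 tested *Plcl1* windows shared reads and stood at 0.02 (-0.99 to 1.03). Another *Plcl1* window (chr1:55429945-55430945) fell under the filter, with 21.5, 19.0 and 19.5 reads on the BALB/cJ allele, against 1, 1 and 6 on the C57BL/6J allele. Without the filter it was called toward BALB/cJ (log2 fold change 2.99, edgeR adjusted p = 0.0034), so not all windows of *Plcl1* were balanced. The interval excluded a log2 fold change of 1 or more at 7 of the 47 windows. At 20 of the 47 it lay below the parental log2 ratio, a ratio that the choice of windows had kept above 1. Shares over all windows tested were not computed for either count, so neither is read as a trait of these windows. The *Cxcr4* window had a log2 fold change of 0.70 (-0.19 to 1.59, edgeR adjusted p = 0.47), with BALB/cJ shares of 78.6%, 41.9% and 67.5% in the 3 libraries. Its log2 fold change was 0.40 without library 1, 1.30 without library 2 and 0.47 without library 3.

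At 2 of the strongest parental windows the reads leaned the other way without passing the test. *Phyh* had 4.0, 23 and 7.5 reads on the BALB/cJ allele, against 18.5, 42.5 and 21.5 on the C57BL/6J allele (log2 fold change -1.29; edgeR adjusted p = 0.15), and *Mndal* 10.0, 18.5 and 6.0 on the BALB/cJ allele, against 23, 52.5 and 13.5 on the C57BL/6J allele (log2 fold change -1.29; edgeR adjusted p = 0.17). By parental ratio to C57BL/6J, 3 of 24 windows with a ratio of 2 to 3 were called toward BALB/cJ, 3 of 9 with a ratio of 3 to 5 and 8 of 14 with a ratio of at least 5, with median log2 fold changes of 0.81, 1.34 and 1.61. With the block the calls were 3 of 24, 1 of 9 and 0 of 14, so the larger share at higher ratios was not present in the paired fit. The groups were formed on a ratio that the rule had limited. They include the 22 windows that passed the F1 filter through the BALB/cJ allele only, so the larger share is no support. Whether these groups differ was not tested.

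**Figure D5:**
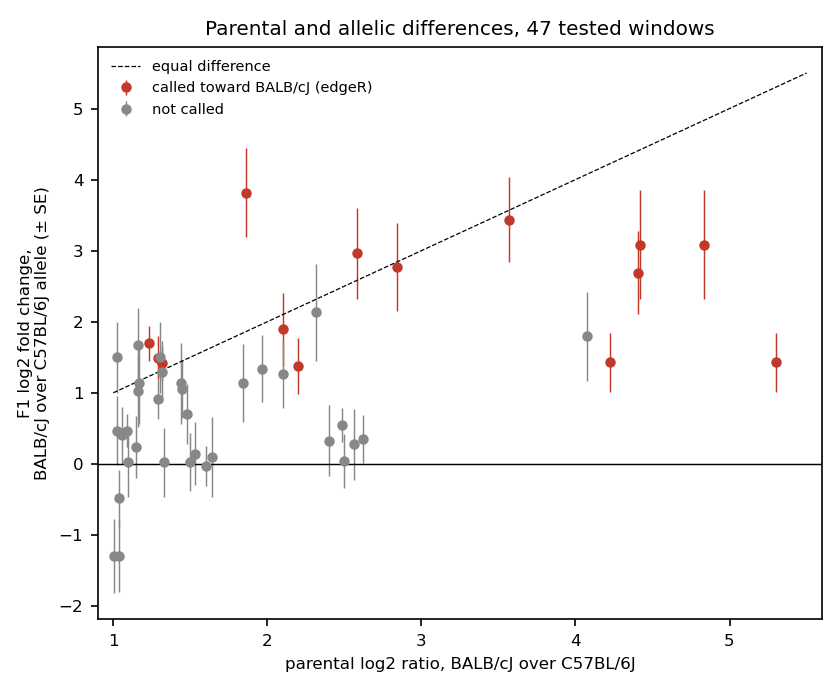
F1 log2 fold change of the BALB/cJ over the C57BL/6J allele (bars SE from edgeR, n = 3 libraries) against the parental log2 ratio of BALB/cJ over C57BL/6J at the 47 tested windows, with windows called toward BALB/cJ in red and the dashed line at equal differences. The median F1 value is 1.13, which includes the 22 windows that passed the filter through the BALB/cJ allele only. A group of windows with parental log2 ratios above 1 lies around 0 in the F1.

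ChIP inputs, which the rule did not use, were compared between BALB/cJ and A/J. Over 648 windows tested, the median log2 fold change was 0.08 (quartiles -0.24 and 0.38), against 0.01 over all windows, and edgeR called 6 windows with more input in BALB/cJ and none with less, where the shares over all windows were 0.0267% and 0.0213%. The uncalled *Pxmp4* input is given above. All 6 lay at the Ifi200 gene cluster of interferon-inducible DNA sensors on chromosome 1: 1 in *Mndal*, 1 at the end of *Ifi202b* (nearest gene *Ifi203*) and 4 in introns of *Ifi202b*. The window at chr1:173972861-173973861 had 21.4, 14.0 and 26.6 input CPM in BALB/cJ, against 6.27, 3.13 and 5.48 input CPM in A/J and 12.9 input CPM in the single C57BL/6J library (log2 fold change BALB/cJ over A/J 2.18 ± 0.45; edgeR adjusted p = 0.0073). Its H3K27ac was 21.4, 14.2 and 16.6 CPM in BALB/cJ, against 4.44, 6.76 and 3.5 CPM in A/J and 0.91, 1.06 and 0.77 CPM in C57BL/6J. Input and ChIP were thus both higher in BALB/cJ than in A/J at these windows, and the part of the input in their ChIP difference was not tested. At an unadjusted p under 0.05 edgeR gave 37 of the 648 windows, against 4183 of all 93767 windows tested. DESeq2 called none of the 648 after adjustment. Leaving out A/J replicate 2 left none called by edgeR, BALB/cJ replicate 3 left 1, and A/J replicate 1 or 3 left 2 each.

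At the limits of the rule, the chosen windows with the smallest ratios were *Ccl24* (2.001), *Rapgef3* (2.002) and *Tspan32* (2.003), and those just left out *Arhgef3* (2.000, below the limit when unrounded), *Sh3pxd2a* (1.999) and *Rab11a* (1.999). By level, *Atp6v0e*, *Pde3b* and *Patj* entered with BALB/cJ means of 5.01, 5.01 and 5.02 CPM, and *Mfng*, *Psat1* and *Abcb9* were left out with 4.99, 4.99 and 4.96 CPM. The floor of 0.4 CPM alone left out 28 windows, the nearest being *Gm14057*, *Cacna1a* and *Ttc12* with lowest strain means of 0.398, 0.382 and 0.378 CPM, while *Txlnb*, *Ifi208* and *Cpne4* entered with 0.404, 0.409 and 0.418 CPM.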

How the data were processed

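Windows and F1 regions were used as deposited. Per the study's methods, the authors mapped reads with Bowtie2, merged reproducible ATAC-seq peaks and counted ChIP tags with HOMER, on mm10; hybrid reads were mapped to both parental genomes, and those matching one genome perfectly across a strain variant were assigned to its allele with MMARGE. The deposited parental table holds raw counts (replicates 1 and 3) or fractional, estimated counts (replicate 2 and inputs); the deposited F1 alleles are estimated counts in 200 bp regions. A further deposited column (other) names the ATAC-seq peak sets of each window. Perfect-match F1 columns (6) were not used.

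CPM is the count over the column sum. F1 regions were summed into the window that holds their midpoint (107291 regions). Estimated counts were rounded, normalized by TMM and tested with edgeR 4.0.16 (R 4.3.3) in autosomal windows with a mean normalized count above 16 (F1) or 4 (inputs), adjusted over all of them. Alleles of the same library deviated together (correlations 0.193, 0.191 and 0.199 of the deviations from allele means). The pairing follows from the shared library, so blocked values are given. Neither parental nor hybrid replicates are stated to be separate animals, so p-values measure the spread between these samples. On simulated F1 counts over 5093 windows, 97% of log2 changes of 2 and 100% of changes of 3 were called. On simulated inputs over 93276 windows the shares were 56% and 100%. The changes were placed only in windows with means above 2 times the filter, with a common spread and no effect shared by the alleles of a library. Log2 changes under 2 were not simulated, so the shares do not cover smaller changes or windows near the filter.

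Members and gene lists were chosen with earlier results of these data known. Named were the up to 8 called F1 windows with separated alleles and a BALB/cJ allele mean of at least 50 reads, the 8 with the highest BALB/cJ mean, the 8 with the largest smaller ratio, up to 4 per gene list, the 6 genes with most windows, windows next to each limit, and, of the 20 tested windows with the highest BALB/cJ mean, the 5 nearest to an F1 log2 fold change of 0, with 1 window per gene in the rankings and no symbols starting with Gm or ending in Rik except at the limits. Other windows, among them all other called ones, and the *Kif2c*, *Vti1b* and *Arg2* sequences were added after their values were seen. Sequences are from GRCm38.p6; alternatives were another tool, filter, scaling, join, block and each library left out.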

Additional observations from a re-analysis of the deposited data

How the results depend on the processing

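In place of 650 windows, the rule took between 612 and 816 when 1 library at a time was left out (531 to 618 of them among the 650), 622 with TMM library sizes (615 shared) and 640 with rounded counts (636 shared); a limit of 3 times gave 181, a limit of 10 CPM 291 and, chosen after seeing the data, replicate 2 libraries alone 1421, with 428 shared (replicates 1 and 3 alone gave 624, with 462 shared). In the F1, members called toward BALB/cJ numbered 14, and 16 by DESeq2, 14 without TMM, 17 with the overlap join, 31 without the filter on low counts and 4 with the replicate block. Leaving out 1 hybrid library gave 3 to 13. Without the filter 1 member was called toward C57BL/6J, a *Tmem229b* window with 0, 0 and 0 reads on the BALB/cJ allele and 3.5, 20.0 and 9.5 on the C57BL/6J allele. It is not the *Tmem229b* window at -7840 bp named above for its ratio, which had no allelic reads. Over all windows the calls toward BALB/cJ and toward C57BL/6J, 159 and 233, became 301 and 439 without the filter and 78 and 117 with the replicate block. They were 45 to 176 and 93 to 248 when 1 hybrid library was left out. The causes were not tested. Directions changed at windows that were not called: *Slc4a11* stood at -0.0068 without TMM, and leaving out 1 hybrid library gave -0.12 to 0.10 at *S1pr1* and -0.13 to 0.74 at *Myoc*.

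For the inputs, members called higher in BALB/cJ, 6, became 0 with DESeq2, 5 with the replicate block (same-numbered input libraries correlated at 0.04, 0.04 and -0.01, so they share a number and no pairing) and 0 to 5 when 1 library was left out. Over all windows the 25 higher and 20 lower calls became 0 and 0 with DESeq2, and 4 to 23 and 7 to 13 when 1 library was left out. In the F1, 403 of the 650 windows had no allele-assigned count, and 200 had too few to be tested. Since the perfect-match columns were not used, a lack of strain variants and a lack of depth were not told apart at the 403.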
